A study of Mus musculus with 12 samples.

Results

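Genes with symbols starting Kcn encode the potassium channels and their accessory subunits, and 92 of the 20661 protein-coding genes on mouse chromosomes 1 to 19 in the RefSeq table belong to them. They were chosen by symbol alone, and each gene was followed over a window made of its body and 10 kb on each side. H3K27ac, the acetylation of lysine 27 on histone H3 found at active promoters and enhancers, had been mapped by ChIP-seq in whole hearts ("Total heart" in the labels) of newborn mice at postnatal day 0. The 3 WT hearts (numbered 1, 3 and 4) were compared with 3 hearts (edKO 1, 3 and 6) of cardiomyocyte-specific RXRab-/- newborns, which lack the retinoid X receptors alpha and beta in cardiomyocytes. Each heart was a separate animal, per the labels, and all were fixed with DSG and formaldehyde. The labels name neither the promoter that drives the deletion nor the strain. The chromatin came from cardiac nuclei of the whole organ, so cells other than cardiomyocytes, which keep both receptors, contributed to every list. In such tissue, fewer cells of a type and less mark per cell cannot be told apart.

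Potassium channels let potassium leave the cell and so end the action potential and hold the resting potential. The voltage-gated families (Kcna, Kcnb, Kcnc, Kcnd, Kcnh and Kcnq) open on depolarisation, the inward rectifiers (Kcnj) set the resting potential, the two-pore-domain channels (Kcnk) carry leak currents, and the calcium-activated channels (Kcnm and Kcnn) respond to intracellular calcium. Accessory proteins (Kcnab, Kcne and Kcnip) change the gating or the surface level of the pore-forming subunits. In the ventricle of the mouse, transient outward and rapidly activating currents carry much of the repolarisation.

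The lists of called regions differed in length between hearts. They covered 59076784 to 68260351 bp in the WT hearts and 47874433 to 66570290 bp in the edKO hearts, and edKO 3 had the shortest. Read depth per heart is unknown, so a region absent from a heart's list was not called there and may still carry the mark. All 10 cardiomyocyte marker genes were covered in every heart, and none of them passed the test between genotypes. Fibroblast markers covered 27865 to 54335 bp in WT and 37861 to 42749 bp in edKO hearts, and atrial markers 17131 to 32002 bp and 18287 to 34782 bp. Markers of other lineages were in part at 0 in every heart: Sox10 and Th of nerve and Schwann cells, Ptprc and Lyz2 of leukocytes, and Hba-a1 and Hbb-bt of erythroid cells. The part of cell makeup in the results below was not tested.

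The start sites of 68 Kcn genes were in the RefSeq promoter table (build GRCm38.p6, which shares its coordinates with mm10), and had 93 promoters in all. Of these genes, 12 (17.6%) had a called region over the promoter window, 250 bases before to 50 bases after the start, in all 6 hearts, against 52.3% of the 16456 genes with a promoter in the table. The 12 genes were Kcna3, Kcna5, Kcnab2, Kcnh2, Kcnip2, Kcnj2, Kcnj3, Kcnj4, Kcnj5, Kcnk2, Kcnn1 and Kcnq5. In 41 genes (60.3%) no heart had a call over any promoter window, against 40.8% of all genes. The 250 bases before the start are shown for 5 of the 12, chosen because they encode pore subunits of major cardiac currents: the inward rectifier Kcnj2, the acetylcholine-activated pair Kcnj3 and Kcnj5, the rapid delayed rectifier Kcnh2 and the ultrarapid atrial channel Kcna5. Each is written 5′ to 3′ on the strand of its gene. Capitals mark 7 motifs searched on both strands. These were the GC box with letters GGGCGG, the CCAAT box, the E box with letters CACGTG, the TATA box with letters TATAAA, the GATA site with letters AGATAA, the core of MEF2 sites with letters CTATTT and the hexamer of nuclear receptors such as RXR with letters AGGTCA. Only the GC box, the CCAAT box (as ATTGG on the other strand) and the E box occurred in these 5.
Kcnj2, chr11:111065914-111066163, plus strand: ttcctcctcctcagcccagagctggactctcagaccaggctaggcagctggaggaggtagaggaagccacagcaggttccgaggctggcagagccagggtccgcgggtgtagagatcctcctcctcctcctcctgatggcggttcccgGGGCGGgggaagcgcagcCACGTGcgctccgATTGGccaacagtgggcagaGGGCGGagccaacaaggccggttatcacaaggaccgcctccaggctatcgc
Kcnj3, chr2:55435720-55435969, plus strand: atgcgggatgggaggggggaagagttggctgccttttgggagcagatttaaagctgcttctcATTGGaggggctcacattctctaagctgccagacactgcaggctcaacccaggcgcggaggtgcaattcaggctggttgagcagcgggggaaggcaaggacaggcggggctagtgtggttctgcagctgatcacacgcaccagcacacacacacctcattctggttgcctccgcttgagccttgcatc
Kcnj5, chr9:32344345-32344594, minus strand: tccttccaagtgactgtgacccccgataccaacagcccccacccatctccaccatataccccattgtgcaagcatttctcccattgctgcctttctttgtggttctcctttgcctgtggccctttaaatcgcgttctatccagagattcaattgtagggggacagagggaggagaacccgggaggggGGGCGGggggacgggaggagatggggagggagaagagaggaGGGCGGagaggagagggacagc
Kcnh2, chr5:24329592-24329841, minus strand: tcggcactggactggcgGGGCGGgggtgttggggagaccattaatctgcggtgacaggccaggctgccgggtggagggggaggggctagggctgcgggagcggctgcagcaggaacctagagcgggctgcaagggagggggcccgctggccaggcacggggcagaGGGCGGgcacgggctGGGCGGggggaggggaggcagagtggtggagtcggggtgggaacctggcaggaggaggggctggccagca
Kcna5, chr6:126535556-126535805, minus strand: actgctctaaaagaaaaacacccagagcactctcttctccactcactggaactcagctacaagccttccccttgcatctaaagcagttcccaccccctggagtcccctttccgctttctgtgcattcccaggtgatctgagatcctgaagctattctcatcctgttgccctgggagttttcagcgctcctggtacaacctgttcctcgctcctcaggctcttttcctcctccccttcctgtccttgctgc

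These 5 promoters were unlike each other in base composition. Over these 250 bases Kcnh2 had 73.6% G and C and 3 GC boxes, Kcnj2 65.6% and 2, and Kcnj5 58.0% and 2. Kcnj3 had 58.4% and no GC box, with 1 CCAAT. The Kcna5 promoter had 53.2% G and C, 3 CpG sites and none of the 7 motifs. The Kcnh2 and Kcnj3 starts shown lie well inside the bodies of their genes, and the Kcnj5 start lies just inside its own.

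Over the 300 bases of the window, the 13 Kcn promoters called in all hearts had a median of 66.7% G and C and 19 CpG sites, and 9 of them (69.2%) held a GC box. The 63 Kcn promoters called in no heart had a median of 56.0% and 7 CpG sites, and 25 (39.7%) held one. Among all 20084 promoters the share with a GC box was 47%. It was 68.6% among all promoters called in every heart, with a median of 23 CpG sites. Among all promoters called in no heart it was 19.7%, with a median of 3 CpG sites. The called Kcn promoters were thus near the general share, and the uncalled Kcn promoters lay above theirs. The AGGTCA hexamer was in 6 of 93 Kcn promoters (6.45%) and in 14.7% of all promoters. The direct repeat of 2 such hexamers with 1 base between (DR1) was in 0 of the 93 and in 9 of all promoters. TATAAA was in 5.38% of the Kcn promoters and 12.7% of all, and CCAAT in 31.2% and 38.1%.

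Counted over the whole window, 46 of the 92 genes had a called region in all 6 hearts (50%), 21 in some and 25 in none (27.2%). Over all protein-coding genes 66.1% had a call in every heart and 26.5% in none. With the gene body alone, 33 Kcn genes (35.9%) were called in every heart, against 58.7% of all genes. Kcn bodies were long, with a median of 34546 bp against 17491 bp. The median share of the window that was covered was 0.54% in Kcn genes and 3.38% in all genes. Among genes called in every heart these medians were 6.1% and 6.5%.

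Subfamilies differed in how many members had a called region in the window, which can belong to a neighbouring gene. Kcnj1, Kcnj9, Kcnj10 and Kcnj14, for example, had no called length in their own bodies. At Kcnab2 94.3% of the length lay inside other genes. In Kcnj 13 of 15 members were called in every heart and none was without a call. Both Kcnd genes, all 3 Kcnab genes, 3 of 4 Kcne genes and 3 of 4 Kcnn genes were called in every heart. In Kcnk, the leak channels, 4 of 14 were called in every heart and 7 in none. Kcnc, the fast-firing channels of neurons, had 0 of 4 called in every heart, and the 3 Kcns genes, which encode silent modifier subunits, had no call in any heart. Kcnc2 was the most covered Kcnc gene, with 0 to 793 bp. The single Kcnf gene, Kcnf1, had 0 to 408 bp in its flanks, and the Kcnv gene with the most, Kcnv2, 0 to 440 bp. Of the 16 accessory genes 9 were called in every heart and 0 were without a call, and of the 76 pore-forming genes 37 and 25.

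**Figure D1:**
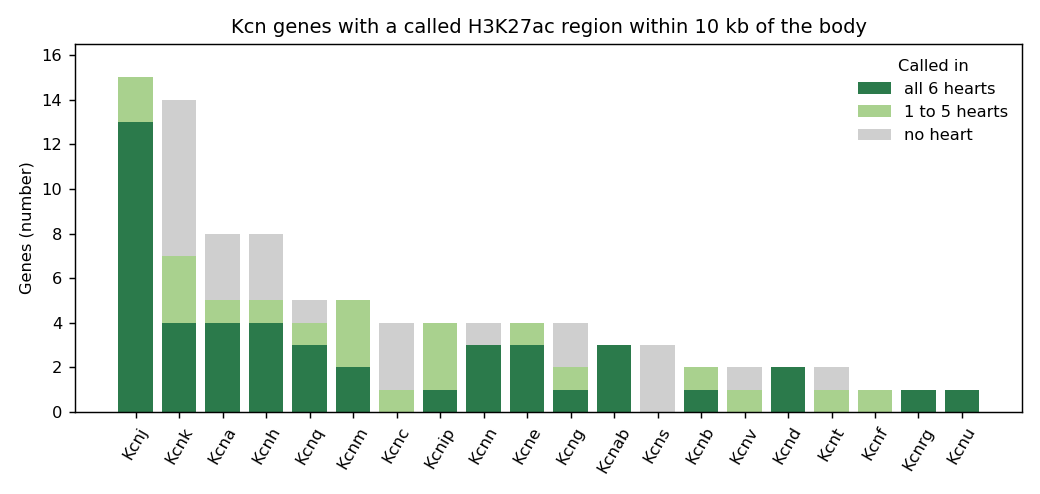
Number of Kcn genes per subfamily (y axis) whose window held a called H3K27ac region in all 6 hearts, in 1 to 5 hearts or in no heart. Kcnj has 13 of 15 genes called in every heart, and Kcns has 3 genes with no call.

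Levels were compared between genes as the percentage of the window covered. Kcng2, which encodes a modifier subunit that has no current of its own, had the highest, 39.7% ± 4.2 in WT and 37.8% ± 11.0 in edKO hearts (SD, n = 3 each). Kcnh2 followed with 37.2% ± 3.17 and 36.7% ± 9.71, and Kcne1, the beta subunit of the slow delayed rectifier, with 37.8% ± 2.87 and 35.4% ± 3.95. Kcnk3, an acid-sensitive leak channel, had 38.4% ± 2.66 and 28.0% ± 5.97. These 4 did not differ from each other beyond their spread in WT hearts. Next came Kcna5 with 23.1% ± 3.95 and 25.8% ± 5.91, Kcnj11 with 26.2% ± 2.80 and 22.2% ± 4.37 and Kcnj5 with 22.3% ± 1.10 and 19.8% ± 6.16. By the mean over 6 hearts 6 members lay above the 95th percentile of all loci and 12 above the 90th.

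**Figure D2:**
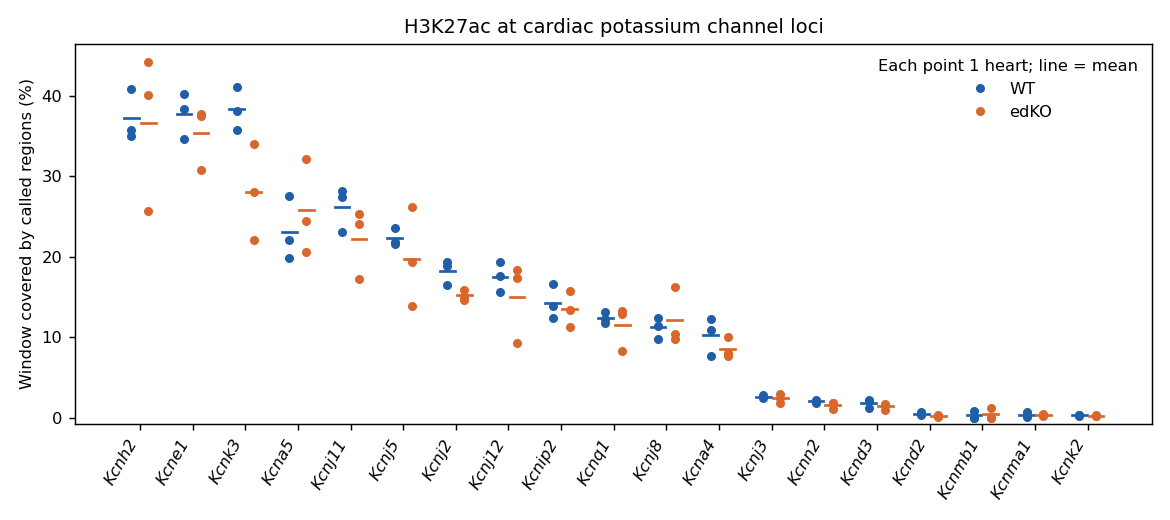
Percentage of the window covered by called regions (y axis) at 19 cardiac potassium channel genes (x axis), 1 point per heart and a line at the mean of each genotype, without centring. Kcnh2, Kcne1 and Kcnk3 lie highest, and the lowest edKO point at Kcnh2, Kcnj12 and Kcnj5 is edKO 3.

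By length, Kcnq1, the pore subunit of the slow delayed rectifier, carried the most. Called regions covered 44620, 41688 and 40152 bp of its window in WT 1, 3 and 4 and 43945, 28238 and 44865 bp in edKO 1, 3 and 6. The value of edKO 3 stood below the other 5, which lay close together. Its 52 regions over the 6 lists included 13 called in every heart and 20 called in 1 heart, and 99.8% of the length lay inside the gene. Kcng2 had 31269 to 37854 bp in WT and 22659 to 41001 bp in edKO hearts, and Kcnh2 18271 to 21303 bp and 13413 to 23056 bp. Kcnh2 had 12 regions, 6 of them in every heart, the longest 6152 bp. Within each heart's own list the strongest entry at Kcnh2 lay between the 95.6th and the 99.8th percentile of the authors' fold enrichment, at Kcng2 between the 97.7th and 99.8th and at Kcnq1 between the 95.6th and 97.8th. Windows with many entries have more chances of a high rank, and such ranks were not particular to these genes. Kcnj14, with no called length in its own body, had the 99.4th to the 100th.

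Neighbouring genes shared part of the windows. Of the 50 Kcn loci with a mean of at least 500 bp, which were tested, 25 had another protein-coding gene in the window. In 31 over 50% of the length lay inside their own body. In 11 over 50% lay inside other gene bodies (Kcnab2, Kcne2, Kcnh3, Kcnh4, Kcnip2, Kcnj10, Kcnj14, Kcnk4, Kcnmb3, Kcnrg and Kcnu1), and 7 had none in their own body (Kcnh4, Kcnj1, Kcnj9, Kcnj10, Kcnj14, Kcnrg and Kcnu1). Where another gene lies in the window, the mark of the channel gene and that of its neighbour cannot be told apart. Kcnj1 has no other protein-coding gene in its window, and its length lay in the flanks. At Kcnip2, which encodes the accessory subunit of the transient outward channels, 18.6% of the length lay inside the gene, 791 to 1395 bp per heart. Most of that belonged to a region over its promoter, which covered 1083 to 2300 bp and ran beyond the body. Another 56.0% of the length lay inside neighbouring genes such as Oga and Armh3.

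**Figure D3:**
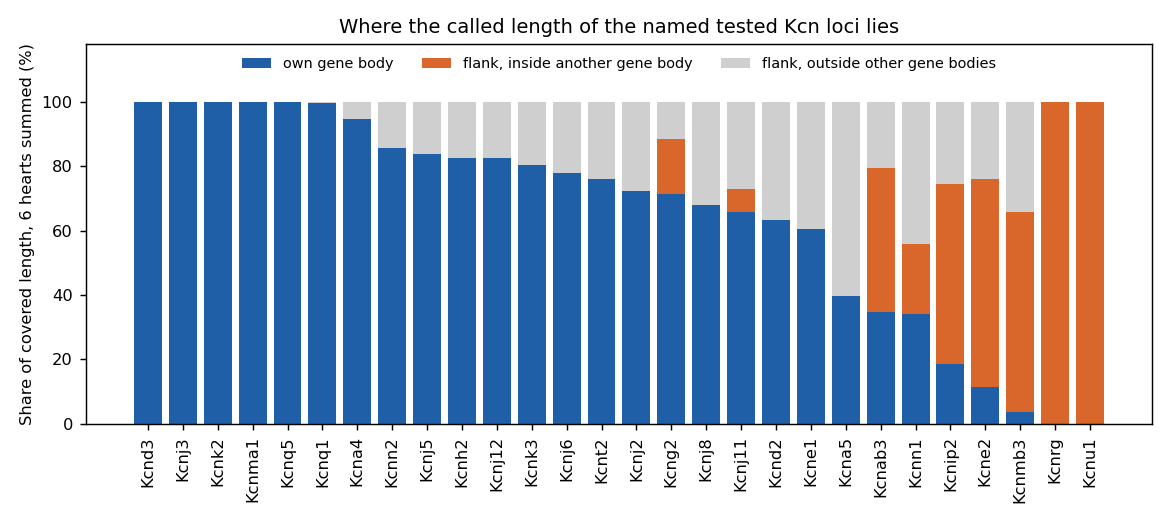
Share of the called length, summed over 6 hearts (y axis, percent), that lies in the gene's own body, in the flanks inside another protein-coding body, or elsewhere in the flanks, for 28 named loci that were tested. Kcnq1 lies almost wholly in its own body, and Kcnrg and Kcnu1 wholly in other genes.

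The genotypes were compared on log2(covered bp + 200), centred per heart, with limma and Benjamini-Hochberg adjustment over 13894 loci. No Kcn locus passed an adjusted p of 0.05, and the smallest adjusted p by limma was 0.624. Over all loci 0.122% (17 loci) passed as lower in edKO and 0% as higher, and the first count was 0 to 9 with 1 heart left out, the 0 without WT 3. At an unadjusted p under 0.05, 3 Kcn loci were lower (6%, against 4.64% of all loci) and 1 was higher (2%, against 2.01%). These 4 became 1 without WT 3 or edKO 1, 2 without edKO 3 and 7 without WT 4 or edKO 6. The share of all loci at that p was not computed with 1 heart left out. After centring, the 3 edKO values were all under the 3 WT values at 2 Kcn loci (4%, against 5.79% of all loci) and all over them at 1 (2%, against 7.18%). With 1 heart left out, the first count ranged from 2 to 9 (3.92% to 18.4%, against 8.88% to 11.8% of all loci) and the second from 2 to 4 (4.08% to 8.16%, against 11% to 17.6%). An exact permutation test of a single locus in 3 against 3 hearts cannot go below 0.1.

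The estimate was below 0 at 29 of the 50 Kcn loci (58%), against 41.5% of all loci. Without centring it was 36 of 50 and with quantile normalization 23 of 50. The median difference was -0.019 over the 50 Kcn loci and 0.035 over all loci tested. Of the 19 tested genes in the list of 20 cardiac channels, 15 had an estimate below 0, 0 passed the test and the median was -0.132. The cardiomyocyte markers leaned the same way, with 7 of 10 below 0, 3 above and a median of -0.046. Without edKO 3, the heart with the shortest list, the counts below 0 were 24 of 51 Kcn loci and 11 of 19 cardiac channels. The share of all loci below 0 was not computed without centring, with quantile normalization or without edKO 3. The counts in those settings are therefore not a result about the Kcn genes.

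**Figure D4:**
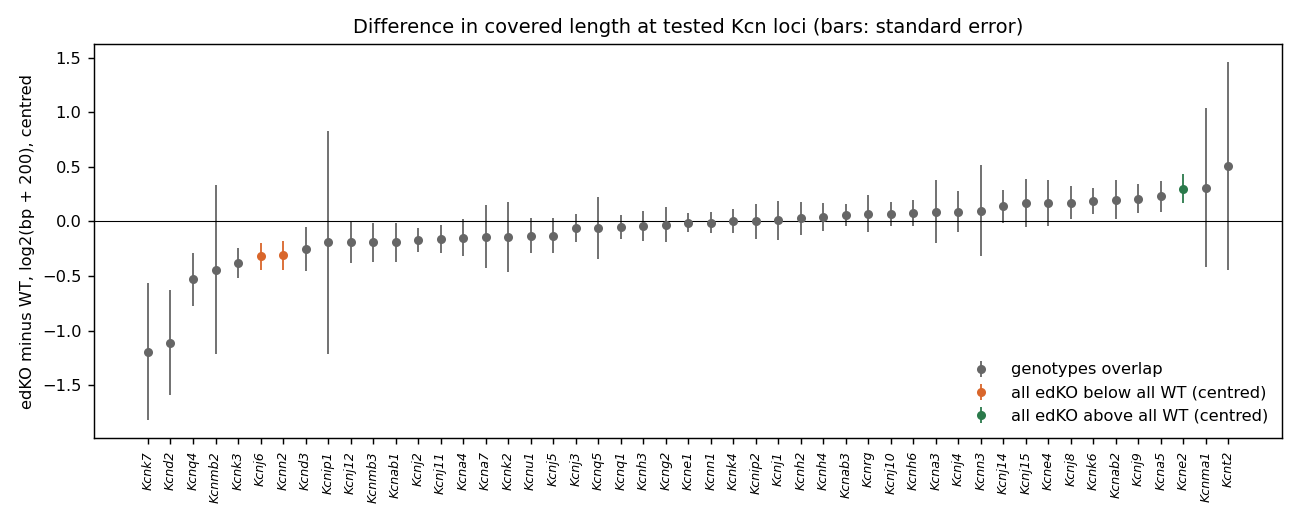
Difference in covered length between edKO and WT hearts (y axis, log2 scale with 200 bp added, centred per heart; points with standard errors) at 49 of the 50 tested Kcn loci, in order. Most points lie within 0.5 of 0, Kcnk7 and Kcnd2 are lowest, and none of them passed the adjusted threshold.

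The leak channel Kcnk3 had the smallest unadjusted p. It covered 21796, 20454 and 23481 bp in WT 1, 3 and 4, against 16004, 12602 and 19421 bp in edKO 1, 3 and 6. Every edKO heart was below every WT heart in base pairs, but after centring edKO 6 (2.46) and WT 3 (2.45) overlapped. The difference was -0.38 ± 0.14 (SE) on the log2 scale, with an unadjusted p of 0.0243 and an adjusted p of 0.624 by limma. The gene lies at chr5:30588170-30625270, and 6 of the 20 regions in its window were called in every heart. The longest of these, 6278 bp in the upper part of the body, held 6092, 5679 and 5875 bp of called length in WT and 5555, 4156 and 4870 bp in edKO hearts. Just beyond the upper end, a region of 1616 bp was called over 1370, 568 and 805 bp in WT hearts and over 0, 0 and 312 bp in edKO hearts. The lowest estimate in the family was at Kcnk7, which has no known current of its own and covered 1080, 824 and 1806 bp in WT, with 436, 0 and 1268 bp among edKO hearts, a difference of -1.19 ± 0.63 with an adjusted p of 0.805 by limma. Kcnk2, which is gated by stretch, covered 325 to 735 bp with a difference of -0.14 ± 0.32.

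**Figure D5:**
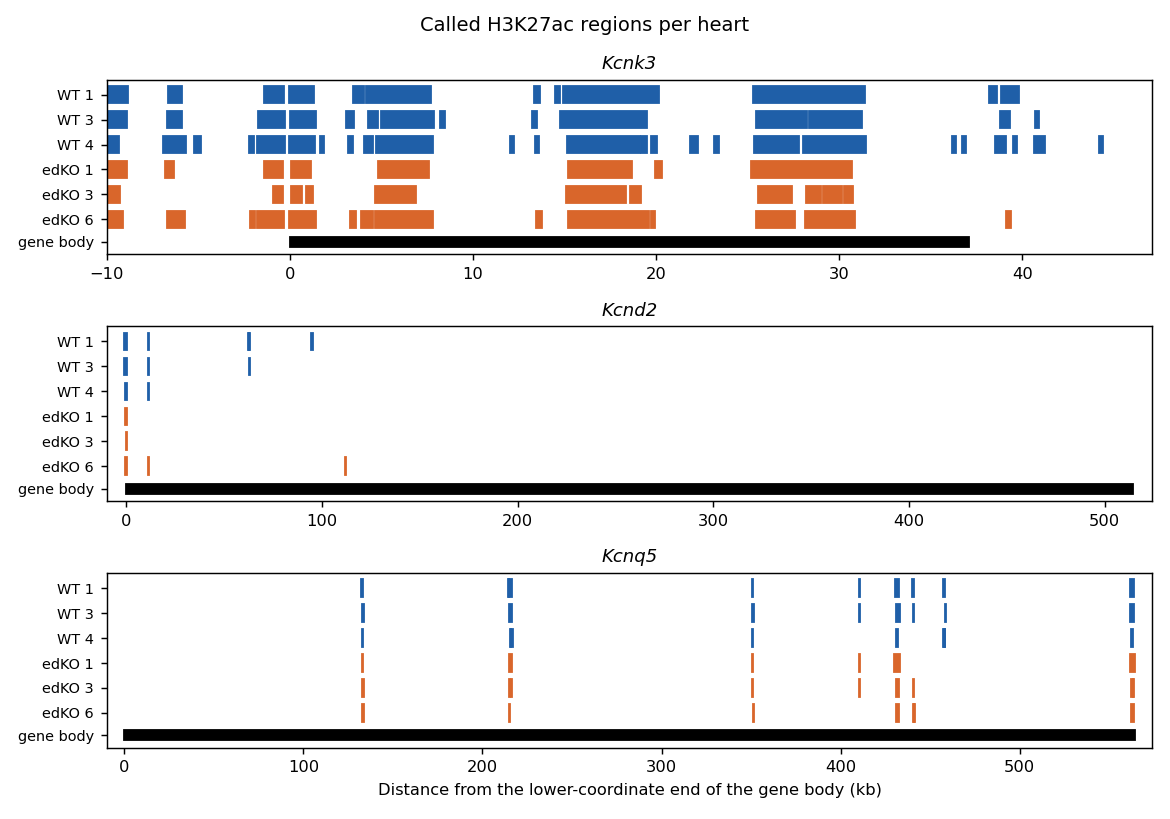
Called regions in each of the 6 hearts (rows) against distance in kb from the lower-coordinate end of the gene body (x axis) at Kcnk3, Kcnd2 and Kcnq5, with the body as a black bar and very short regions drawn at a minimum width. At Kcnk3 6 of the 20 regions were called in every heart, and edKO 3 has the least called length in the window. Kcnq5 has a region called in the 3 WT hearts alone, where the calls of WT 3 and WT 4 share no base.

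Kcnj6, a subunit of G protein-gated inward rectifiers, covered 12902, 12844 and 10110 bp in WT, with 9661, 6852 and 10658 bp among edKO hearts. In base pairs WT 4 was below edKO 6, and after centring every edKO heart (1.31 to 1.61) was below every WT heart (1.63 to 1.86). The difference was -0.32 ± 0.12 with an adjusted p of 0.626 by limma. Kcnn2, a small-conductance calcium-activated channel, covered 9287, 9018 and 8064 bp in WT, with 8006, 4656 and 7809 bp among edKO hearts. The genotypes did not overlap before or after centring, though the gap between WT 4 and edKO 1 was small. The difference was -0.31 ± 0.13, with an adjusted p of 0.724, and -0.18 without edKO 3. At Kcne2, another beta subunit, all edKO hearts were higher after centring (-0.15 to -0.01 against -0.61 to -0.24). It covered 2694, 2272 and 2603 bp in WT, with 3530, 2353 and 3075 bp among edKO hearts, a difference of 0.30 ± 0.13 with an adjusted p of 0.736 by limma. Of that length 64.8% lay in the neighbouring gene Smim11 and 11.2% in Kcne2 itself.

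The transient outward current is carried by Kcnd2 and Kcnd3 with Kcnip2. Kcnd2 covered 3825, 2238 and 1448 bp in WT, with 1138, 267 and 1959 bp among edKO hearts, so edKO 6 lay inside the WT range. The difference was -1.11 ± 0.48 with an adjusted p of 0.748 by limma, and -0.61 without edKO 3 and -0.78 without WT 1. At Kcnd2 the region over the start was called in every heart, over 1306, 1359 and 1116 bp in WT, with 1138, 267 and 1034 bp among edKO hearts. The next, 704 bp long and farther into the gene, was called in all WT hearts and in edKO 6. Kcnd3 covered 5147, 5019 and 2877 bp in WT, with 3940, 2329 and 3877 bp among edKO hearts, with overlap and a difference of -0.25 ± 0.20. Kcnip2 covered 6139, 5437 and 7325 bp and 6929, 4945 and 5921 bp, a difference of 0.00 ± 0.16.

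Among the delayed rectifiers, the differences were small next to their errors. They were -0.05 ± 0.11 at Kcnq1, -0.01 ± 0.09 at Kcne1 and 0.03 ± 0.15 at Kcnh2. Kcne1 covered 13483, 12847 and 11597 bp in WT, with 12574, 10311 and 12621 bp among edKO hearts. Kcna5 covered 6331, 5068 and 4566 bp and 7413, 4744 and 5619 bp, a difference of 0.23 ± 0.14 with the groups overlapping. Kcna4, a slower transient outward channel, had -0.15 ± 0.17, with 4274 to 6901 bp in WT and 4279 to 5637 bp in edKO hearts.

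Among the inward rectifiers, Kcnj2, the main subunit of the resting current of the ventricle, covered 5948, 5763 and 5060 bp in WT, with 4872, 4492 and 4608 bp among edKO hearts. All edKO hearts were lower in base pairs, but after centring edKO 3 (0.72) lay within the WT range (0.66 to 0.76), and the difference was -0.17 ± 0.11. Its partner Kcnj12 covered 11013, 12415 and 13724 bp and 12274, 6551 and 12938 bp, a difference of -0.19 ± 0.19. The acetylcholine-activated channel of the atrium is formed by Kcnj3 and Kcnj5. Kcnj3 covered 5661, 5387 and 5099 bp and 5033, 3640 and 6125 bp, and Kcnj5 10693, 11718 and 10867 bp and 9581, 6879 and 12982 bp. The genotypes overlapped at both, with -0.06 ± 0.13 and -0.13 ± 0.16, and the summed atrial markers overlapped between genotypes too (17131 to 32002 bp in WT, 18287 to 34782 bp in edKO).

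The ATP-sensitive channel joins Kcnj11 or Kcnj8 to the sulfonylurea receptors Abcc8 and Abcc9. Kcnj11 covered 5486, 6540 and 6723 bp in WT, with 6049, 4111 and 5736 bp among edKO hearts, with -0.16 ± 0.13. A region of up to 6006 bp spanned the whole Kcnj11 body, and on average 98.0% of the body was covered in edKO hearts. Kcnj8, known from vascular smooth muscle, covered 3330, 3052 and 2626 bp and 4362, 2607 and 2796 bp, with 0.17 ± 0.15. Abcc9 had -0.33 ± 0.17 and Abcc8 -0.27 ± 0.16, with adjusted p of 0.792 and 0.831 by limma. Abcc8 lies beside Kcnj11 and shares regions with its window. In all, 13 of 14 partner genes were tested, 0 passed (against 0.122% of all loci as lower and 0% as higher) and 9 had an estimate below 0 (against 41.5%). Dpp10 was at 0 in every heart.

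Among the calcium-activated channels, the Kcnn genes had a median covered length of 4401 bp over their 4 members and the Kcnm genes 610.2 bp over 5. Kcnma1, the large-conductance pore of smooth muscle, covered 4616, 3323 and 301 bp in WT, with 3201, 1462 and 2217 bp among edKO hearts. WT 4 stood lowest, and the estimate of 0.31 ± 0.73 became -0.65 without it. Its beta subunit Kcnmb1 had 0 to 250 bp and 0 to 371 bp and was not tested. Kcnn1 covered 8937 to 9257 bp in WT and 7010 to 9587 bp in edKO hearts, with -0.01 ± 0.10. Kcnt2, a sodium-activated channel, had 0, 827 and 321 bp and 0, 572 and 1489 bp.

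Single regions were compared over the union of the 6 lists. The Kcn windows held 353 of its 77817 regions. Of these 126 were called in all hearts (35.7%, the same share as over all regions) and 113 in 1 heart (32%, against 32.3%). A region was called in every WT heart and no edKO heart in 1 case (0.283%, against 1.07% of all regions), and in every edKO heart and no WT heart in 0 (against 0.0732%). With stricter or equally long lists the first share was no longer below that of all regions, at 3 of 232 (1.29%, against 1.02%) and 3 of 253 (1.19%, against 0.535%). The 1 case, at chr1:21855891-21857025, lay inside Kcnq5, a channel of the M-current family. It was called over 1121, 303 and 511 bp in WT 1, 3 and 4. The calls of WT 3 and WT 4 shared no base, and only the longer call of WT 1 joined them into 1 region. Of the 10 regions of Kcnq5, 5 were called in every heart and 2 in 1 heart. Its whole window covered 4677 to 10189 bp in WT and 4865 to 9110 bp in edKO hearts, with -0.06 ± 0.28.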

How the data were processed

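H3K27ac ChIP-seq lists of 6 hearts were used, and 6 input samples were not. The submitters' processing notes name cutadapt, BWA, SAMtools and MACS2 and the builds mm10 and GRCm38, and the sources used here give neither the peak-calling settings nor the depth per heart. In each of the 6 narrowPeak lists the authors deposited, an entry has coordinates, a fold enrichment (a ratio) and significance as −log10 of its p-value and of its q-value. Overlapping entries were merged, and the covered base pairs were summed per gene of the RefSeq table over the body and 10 kb on each side. On the scale log2(bp + 200), the mean over loci covered in all 6 hearts was subtracted from each heart, and only loci averaging at least 500 bp were tested. The genotypes were compared with limma 3.58.1 (R 4.3.3; trended and robust prior) with Benjamini-Hochberg adjustment, threshold 0.05, and the fit was tested on simulated data. A fold change on this scale understates that of little covered loci. The fold served only for ranks within a list.

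Named loci were those past the threshold, those with genotypes separated, the 8 with the most length, the cardiac channel list, the widest of each subfamily and those with a region in 1 genotype alone. Kcnk7 and some counted loci are named outside that rule, after their values were seen. Members and lists were chosen with earlier results of these data known. Results of 1 channel gene and 1 marker gene are not reported here singly, though counts and medians over groups include them. A planned search of protein sequences was not run. Alternatives were other pseudocounts, filters, windows, list thresholds, scalings, a replicate block and each heart left out.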

Additional observations from a re-analysis of the deposited data

How the results depend on the processing

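Of 18 alternatives, 17 left no Kcn locus past the threshold. With the replicate block (1 residual degree of freedom), 1 passed: Kcnd2, at -1.81 with an adjusted p of 0.00968 by limma. In the block fit WT 4 and edKO 6 have numbers of their own, so at every locus the estimate rests on the hearts numbered 1 and 3. At Kcnd2 this leaves out edKO 6, which lay inside the WT range. The shared numbers 1 and 3 were not shown to pair hearts, with correlations of 0.174 and 0.031 between the deviations of same-numbered hearts. The median difference over the Kcn loci stayed between -0.105 and 0.014, and every shift from the main value was under 0.127. That limit is the SD over hearts of the median centred Kcn level, taken within each genotype and averaged. Kcn loci called in every heart numbered 33 (gene body alone) to 48; leaving hearts out of this count was chosen after seeing the data.

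Loci with all edKO hearts lower numbered 5 with stricter lists (−log10 q of at least 5; 10.6%, against 5.36% of all loci), 4 with equal list length (8.51%, against 5.25%), 4 without centring (8%, against 6.54%) and 2 to 9 with 1 heart left out (9 without edKO 6, 18.4% against 11.8%; 7 without WT 4, 13.7% against 9.67%; 5 without WT 1, 10% against 9.27%; 4 without edKO 3, 7.84% against 8.88%). Loci with all edKO hearts higher numbered 2 with a pseudocount of 1000 bp, without the filter or with quantile normalization, 4 with stricter lists, 0 with 2 kb flanks, with the nearest gene alone or without centring, and 2 to 4 with 1 heart left out, where fewer hearts separate more readily. The share over all loci was 6.75% to 7.38% in these settings, but 0.691% without centring and 11% to 17.6% with 1 heart left out. Regions in WT alone numbered 3 with stricter lists (1.29%, against 1.02% of all regions) or equal list length (1.19%, against 0.535%) and 0 where 50% of the region had to be covered (against 0.532%). Kcn loci at an unadjusted p under 0.05 numbered 1 to 7 with 1 heart left out and 1 (no centring) to 11 (replicate block) otherwise. The share of all loci at that p was not computed in these settings, so these counts are not a result about the Kcn genes. All loci past the threshold as lower numbered 0 to 9 and 6 (equal list length) to 86 (replicate block).

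Of 484 single-locus estimates over 28 named loci, 432 kept their direction and side of the threshold, 51 changed sign, at 14 loci, and 1 passed the threshold; none of the 51 passed it, and the cause was not tested. With the gene body alone the sign changed at Kcnj11 (0.04), Kcnab3 (-0.03), Kcnh2 (-0.01) and Kcnip2 (0.10). With stricter lists it changed at Kcnab3 (-0.02), Kcng2 (0.07), Kcnh2 (-0.01) and Kcnip2 (0.01), and with equal list length at Kcnab3 (-0.02), Kcng2 (0.06), Kcnip2 (0.05) and Kcnq1 (0.00). Without centring it changed at Kcnab3 (-0.03), Kcnh2 (-0.05) and Kcnrg (-0.02). Quantile normalization changed it at Kcne1 (0.05), Kcng2 (0.08), Kcnip2 (0.01), Kcnk2 (0.12), Kcnn1 (0.02) and Kcnq1 (0.03). The replicate block changed it at Kcnab3 (-0.01), Kcng2 (0.00), Kcnip2 (0.20), Kcnma1 (-0.61) and Kcnt2 (-0.03). Kcnip2 was also above 0 with a pseudocount of 50 bp (0.00), 2 kb flanks (0.06) and the nearest gene alone (0.18). With 1 heart left out the estimates of the loci that changed sign ranged from -0.04 to 0.03 at Kcne1, -0.16 to 0.12 at Kcng2, -0.08 to 0.15 at Kcnh2, -0.14 to 0.16 at Kcnip2, -0.19 to 0.01 at Kcnj3, -0.65 to 0.92 at Kcnma1, -0.06 to 0.03 at Kcnn1, -0.13 to 0.04 at Kcnq1, -0.31 to 0.19 at Kcnq5, -0.02 to 0.20 at Kcnrg and -0.12 to 1.43 at Kcnt2.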

Other observations

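Kcn genes outside the autosomal protein-coding set were also covered in part. Kcnq1ot1, the long non-coding RNA that runs through Kcnq1, had 2745, 2844 and 2942 bp of called length in its body in WT 1, 3 and 4, against 2204, 2335 and 3874 bp in edKO 1, 3 and 6, and the groups overlapped. Its body lies inside Kcnq1, so this length is also counted there. Kcnd3os, a non-coding gene overlapping the start of Kcnd3, had 265, 468 and 590 bp in WT, with 0, 0 and 763 bp among edKO hearts. On the X chromosome, Kcnd1 had no called length in its body in any heart but 2257 to 2560 bp in its window, and Kcne1l had none in either.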
